A study of Mus musculus with 4 samples.

Results

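A set of heat shock and chaperone genes were followed in single-cell libraries of the fetal mouse hindlimb, 10 of the 32288 genes in the count matrices, each found once by its symbol. Hspa1a, Hspa1b, Dnajb1, Hsph1, Hspb1 and Bag3 are the 6 members treated here as inducible, and Hsp90aa1, Hspa8, Hspd1 and Hspe1 the 4 treated as constitutive. Hindlimbs of E14.5 embryos (E for embryonic day; the labels name the femur and tibia, the study's text the whole limb) were dissociated, sorted on the tdT reporter and sequenced as 4 libraries, a tdT+ and a tdT- library in each of collections 1 and 2. Every embryo carried Gli1CreER, TRE-p21 at the Tigre locus and LSL-tdT at R26, every dam received doxycycline from E12.5 (1 mg/ml in the water, and in the food) and tamoxifen at E13.5 (120 µg/g), and tdT therefore marks the Gli1 lineage. Pan-Cart-p21 MOE embryos (called p21 here) also carried Col2a1-rtTA, which drives the cell cycle inhibitor p21 in cells that use the Col2a1 promoter, mainly chondrocytes; control embryos lacked it.

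Cells of both genotypes were sorted, then pooled into shared libraries so that sex tells them apart. Per the methods of the study, p21 embryos were male and controls female in collection 1, and p21 embryos were female and controls male in collection 2, so each cell was assigned here by its sex-linked transcripts. Within 1 collection, genotype and sex cannot be told apart. The methods name 1 female p21 embryo for collection 2, and the text elsewhere speaks of pooled embryos, so the p21 cells of collection 2 may come from 1 animal. After filtering there remained 780 chondrocytes (4 clusters named from marker genes, with 29 to 239 cells per library and genotype) and 1987 cells outside cartilage. The latter include 4 undecided clusters (153, 60, 38 and 81 cells) whose best match was a chondrocyte type but which did not meet the naming rule. The one of 38 cells, led by Cdkn1a, held only p21 cells, and the one of 81 held 1 control cell. The cluster of 81 made up 14.8% of p21 cells outside cartilage in the tdT+ library of collection 2. Unnamed clusters of 16 and 23 cells also held only p21 cells. The clusters of 38 and 81 were shallow, at 0.255 and 0.144 of the median transcript count of their library. Cells without an assigned sex were set aside here. When they were clustered too, a cluster led by the same gene as that of 81, C77080, held 281 cells. Whether sex calls at low depth shaped the genotypes of these clusters was not tested. The counts of a genotype in a library were summed separately for both compartments, which gave 4 p21 and 4 control values in each. The tdT+ and tdT- libraries of a collection come from the same embryo pools, so a p-value measures the spread between these libraries and not between independent litters.

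Some facts of the whole series bear on what follows. The 4 libraries held 11945062 to 39435830 UMIs (unique molecular identifiers, 1 per captured transcript), and kept cells had a median of 16503 to 27184 UMIs per library. Summed UMIs ran from 741952 to 7099204 in chondrocytes and from 1551545 to 12333516 outside cartilage. Cartilage was digested with collagenase for about 90 min at 37 °C after the outer cells had been released in Accumax over 25 min at 31 °C and put on ice. The compartment and the digestion therefore cannot be told apart for genes that respond to heat or handling. Col2a1, the main cartilage collagen, stood at 6069 to 7694 CPM (the counts-per-million scale, after TMM scaling between libraries) in the 8 chondrocyte values and at 914 to 2043 CPM outside. The WPRE element, present in both the p21 and the tdT transgene, stood at 993, 1125, 1830 and 1299 CPM in p21 chondrocytes (tdT+ then tdT- of collection 1, then tdT+ and tdT- of collection 2) and at 581, 95.7, 475 and 66.2 CPM in controls, without overlap. Cdkn1a, the gene for p21, overlapped between the genotypes (53.9 to 66.7 against 27.1 to 98.0 CPM).

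The heat shock response is a transcriptional programme in which the factor Hsf1, held inactive by chaperones, is released when unfolded proteins accumulate and binds heat shock elements, repeats of the letters nGAAn in alternating orientation. Inducible members are transcribed at a low rate until stress, whereas constitutive chaperones fold newly made proteins in all growing cells. Chondrocytes make large amounts of secreted matrix, and enzymatic dissociation of tissue is itself a known trigger of stress genes.

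The promoters of the members carry this element to different extents. RefSeq (GRCm38.p6) gave the 250 bases before the annotated start for 8 of the 10 members, with no entry matched for Hspa8 and Hsp90aa1. The letters GAANNTTC or TTCNNGAA were found in 12.8% of 32851 promoters of this length (6.69% and 7.17% for each alone; each reads the same on both strands, and the pair may overlap), and a longer form of 3 such alternating units, which contains the shorter one and was searched in both orientations, in 0.466%. Hspa1a and Hspa1b are shown because their 2 windows matched at 247 of 250 bases, and Hspb1 because it holds 2 separate matches, with matched letters in capitals. Hspa1a lies at chr17:34972157-34972406, Hspa1b at chr17:34959239-34959488 (both on the minus strand) and Hspb1 at chr5:135887669-135887918 (plus strand).
Hspa1a: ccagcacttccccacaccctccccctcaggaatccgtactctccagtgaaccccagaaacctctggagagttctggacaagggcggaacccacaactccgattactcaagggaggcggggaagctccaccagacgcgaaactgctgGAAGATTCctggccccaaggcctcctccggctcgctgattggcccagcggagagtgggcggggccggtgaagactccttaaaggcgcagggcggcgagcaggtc
Hspa1b: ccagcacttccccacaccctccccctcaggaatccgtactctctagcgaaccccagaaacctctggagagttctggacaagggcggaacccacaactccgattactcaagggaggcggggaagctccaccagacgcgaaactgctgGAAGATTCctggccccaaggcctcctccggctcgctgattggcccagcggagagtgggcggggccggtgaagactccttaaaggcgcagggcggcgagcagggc
Hspb1: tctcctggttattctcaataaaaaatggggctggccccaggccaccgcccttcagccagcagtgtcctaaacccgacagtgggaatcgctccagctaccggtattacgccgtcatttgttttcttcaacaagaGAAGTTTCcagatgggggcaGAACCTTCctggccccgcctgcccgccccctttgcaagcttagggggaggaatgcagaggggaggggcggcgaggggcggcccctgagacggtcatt
The match in Hspa1a began 104 bases before the start, and those in Hspb1 117 and 97 bases before it. For Hspe1 and Hsph1 the matched sites are shown as 30 bases, Hspe1 at chr1:55088053-55088082 (plus strand), a stretch that also falls in the window of a transcript of the divergent gene Hspd1, and Hsph1 at chr5:149636351-149636380 (minus strand).
Hspe1: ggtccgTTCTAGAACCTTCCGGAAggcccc
Hsph1: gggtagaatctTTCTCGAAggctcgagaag
The Bag3 and Dnajb1 windows held none of these letters, which says only that this stretch lacks them.

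Hspa1a and Hspa1b, 2 genes for the inducible Hsp70 that refolds damaged proteins, were lower in p21 chondrocytes than in controls in every library. Hspa1a stood at 283 CPM (tdT+) and 110 CPM (tdT-) in p21 chondrocytes of collection 1, and at 18.5 and 28.4 CPM in those of collection 2. In control chondrocytes it stood at 617, 428, 402 and 617 CPM in the same order, so the genotypes did not overlap. The log2 fold change of p21 against control was -2.47 ± 0.64 (SE), and edgeR's quasi-likelihood test gave an adjusted p of 0.119, which did not pass the threshold of 0.05. Hspa1b stood at 304, 250, 27.2 and 42.2 CPM in p21 and at 652, 405, 663 and 531 CPM in control chondrocytes, again without overlap, with a log2 fold change of -1.98 ± 0.59 and an edgeR adjusted p of 0.187. The genes are neighbours on chromosome 17 (Hspa1b at 34956436-34959238, Hspa1a at 34969190-34972156, minus strand, GRCm38, 9951 bases apart). Their coding sequences were identical at 1915 of 1923 aligned bases, while the 3′ untranslated regions, where this assay reads most, matched at 71.6% of 578 aligned bases. Reads from the coding sequence may not tell the 2 genes apart, and how reads fell between them was not tested. Summing them left 2 members called.

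**Figure D1:**
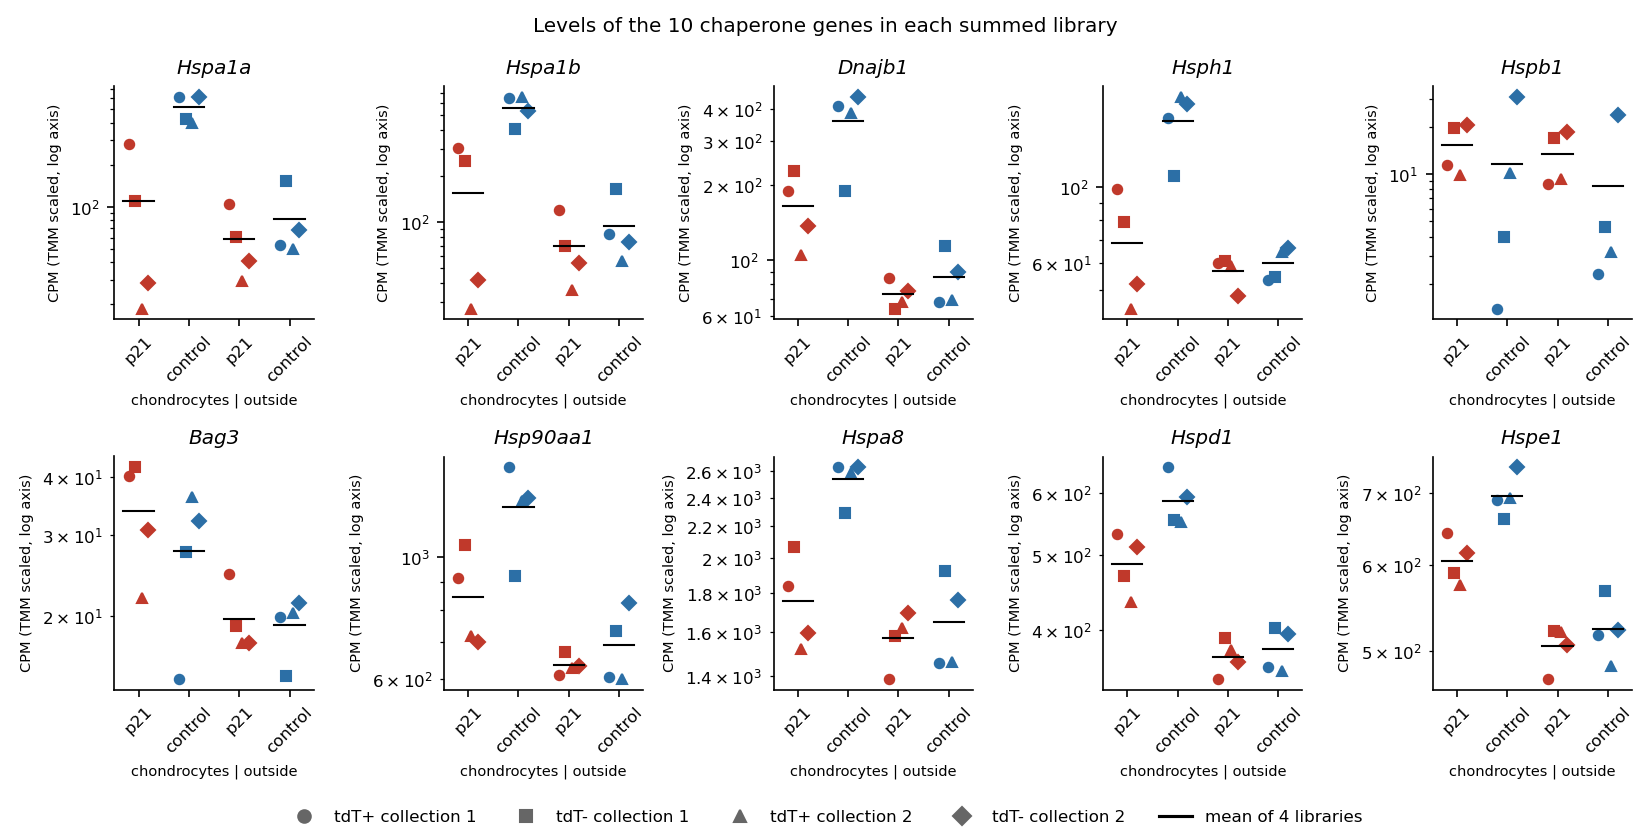
Level of each of the 10 genes in TMM-scaled CPM (y axes, log scale, each with its own range) in p21 (red) and control (blue) chondrocytes and cells outside cartilage. Each point is 1 library and the line the mean of 4. On this scale Hspa1a, Hspa1b, Hsph1, Hspa8, Hspd1 and Hspe1 show no overlap between p21 and control in chondrocytes, and outside cartilage each of the 10 genes overlaps. The share of all genes without overlap was not counted, so this describes the 10 genes only.

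The partners of Hsp70 gave smaller differences. Hsph1, the Hsp110 that exchanges nucleotide on Hsp70, stood at 98.9, 78.9, 44.1 and 52.2 CPM in p21 chondrocytes. In controls it stood at 158, 107, 184 and 175 CPM, and the lowest control lay above the highest p21 value. The gene spans 149614287-149636376 of chromosome 5 (minus strand). It fell by 1.28 ± 0.24 on the log2 scale, adjusted p = 0.0341 in edgeR, and was 1 of 2 members called. Dnajb1, the Hsp40 that delivers clients to Hsp70, stood at 189, 227, 105 and 137 CPM in p21 and at 411, 188, 388 and 449 CPM in control chondrocytes. The control of the tdT- library of collection 1 lay within the p21 range, and the log2 fold change was -1.17 ± 0.27 (edgeR adjusted p = 0.0792). Bag3, a co-chaperone that links Hsp70 to small heat shock proteins and autophagy, stood at 40.2, 42.1, 21.9 and 30.8 CPM in p21 and at 14.6, 27.5, 36.2 and 32.1 CPM in control chondrocytes, with overlap and a log2 fold change of 0.18 ± 0.26 (edgeR adjusted p = 0.860). Hspb1, the small heat shock protein Hsp27, rested on 15 to 144 UMIs in p21 and 2 to 99 in control chondrocytes and gave 0.37 ± 0.50 (edgeR adjusted p = 0.853).

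Among the constitutive members, Hspa8, the housekeeping Hsp70 of the cytosol, stood at 1838, 2070, 1516 and 1595 CPM in p21 chondrocytes. Its controls stood at 2633, 2291, 2590 and 2633 CPM, all above the p21 values. Hspa8, at 40800984-40810087 of chromosome 9 (plus strand), fell by 0.53 ± 0.10 on the log2 scale (edgeR adjusted p = 0.0402) and was the other member called. Hsp90aa1, the stress-responsive isoform of Hsp90, stood at 918, 1054, 718 and 701 CPM in p21 and at 1461, 923, 1268 and 1284 CPM in controls, which overlapped through the tdT- library of collection 1. Its log2 fold change was -0.54 ± 0.16 (edgeR adjusted p = 0.163). The mitochondrial pair, Hspd1 (the Hsp60 folding chamber) and Hspe1 (its Hsp10 lid), gave the smallest values below 0. Hspd1 was at 435 to 531 CPM in p21 and 552 to 648 CPM in control chondrocytes (log2 fold change -0.27 ± 0.09, edgeR adjusted p = 0.278), and Hspe1 at 575 to 642 against 662 to 740 CPM (-0.20 ± 0.08, adjusted p = 0.341). Both pairs of ranges were apart on the TMM scale but overlapped in plain CPM, where the p21 value of the tdT+ library of collection 1 (557 for Hspd1 and 674 for Hspe1) lay above the lowest control (542 and 647). These 2 genes are transcribed away from each other on chromosome 1 (Hspd1 at 55077835-55088243 on the minus strand, Hspe1 at 55088132-55091307 on the plus strand, GRCm38) and their 5′ parts overlap by 112 bases.

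Of the 10 members, 2 were called in chondrocytes and both were lower in p21, while 0.799% of the 11633 genes tested were called (25 higher and 68 lower). At an unadjusted p under 0.05, 8 of 10 passed, all 8 lower in p21. The median log2 fold change over all genes was -0.0008. By p the ranks of these members among all genes were 48 for Hsph1, 57 for Hspa8, 136 for Dnajb1 and 210 for Hspa1a. Hsp90aa1 was 307th, Hspa1b 346th, Hspd1 543rd and Hspe1 774th, so at least 774 of the 11633 genes passed at this unadjusted threshold. DESeq2 called 2 members and limma-voom 5. Their shares over all genes are not printed here, and calls over all genes ranged from 9 to 495 across alternatives. No member was called when any 1 of 5 values was left out, namely the control of the tdT+ library of collection 1 or any of the 4 values of collection 2, when chondrocytes were taken by a gate on cartilage genes instead of clusters (which added 962 of the 1987 cells classed here as outside cartilage), or when the tdT+ and tdT- values of a pool were summed. The summed level of 6 proliferative chondrocyte markers, all detected, moved with genotype too, at 2001 to 2659 CPM in p21 and 2770 to 3602 CPM in control chondrocytes. The markers of muscle (1 to 7 CPM), immune cells (4 to 15) and erythroid cells (4 to 18) were near 0 in all 8 values. Those of several other types were not. Endothelial markers stood at 163 to 245 CPM in p21 and 82.3 to 206 CPM in control chondrocytes, above the 30.3 to 57.9 CPM outside cartilage. Pericyte markers stood at 171 to 227 and 180 to 208 CPM, and mesenchyme or fibroblast markers at 163 to 236 and 197 to 247 CPM. The part of the proliferative and of these other markers in the result was not tested.

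Outside cartilage every member overlapped between genotypes. The p21 sums here include clusters, given above, that the control sums lack or nearly lack. Hspa1a stood at 105, 60.8, 29.0 and 40.5 CPM in p21 and at 53.4, 154, 49.4 and 68.5 CPM in controls (log2 fold change -0.38 ± 0.44, edgeR adjusted p = 0.993). Hspa8 averaged 1569 CPM in p21 and 1650 CPM in controls (-0.07), and Hsph1 57.0 and 59.8 CPM (-0.09). In the edgeR fit 0 of 10 members were called, 0 passed at an unadjusted p under 0.05 and DESeq2 called 0; 0.00706% of 14162 genes were called.

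**Figure D2:**
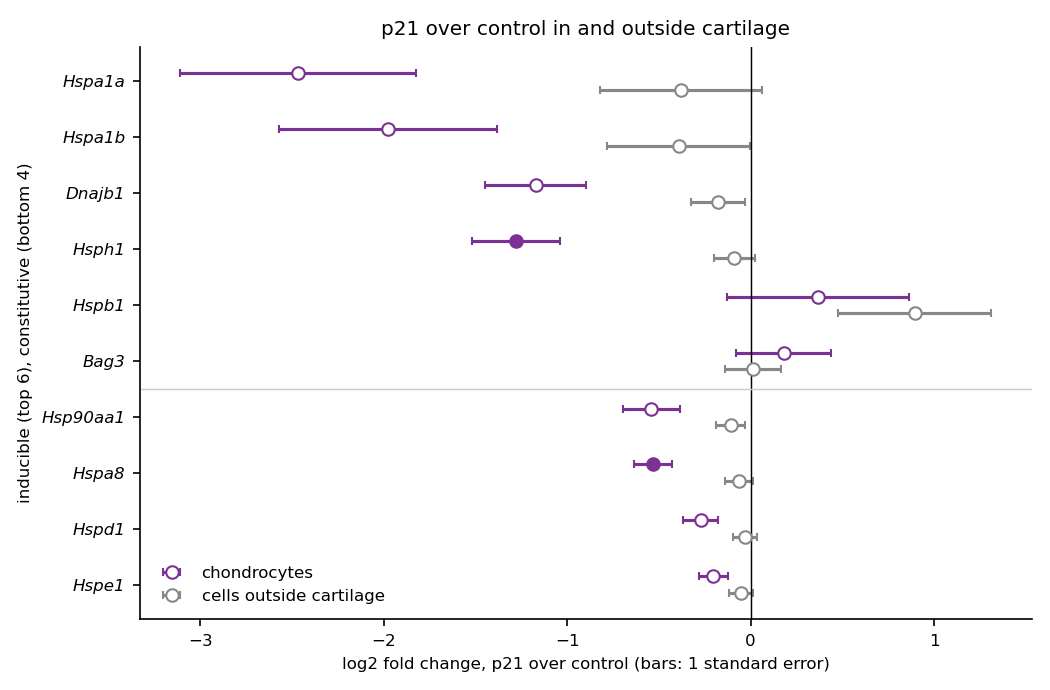
Log2 fold change of p21 against control for each gene (x axis; points with bars of 1 standard error from edgeR, filled where called) in chondrocytes and outside cartilage. In chondrocytes 8 of 10 genes lie below 0, from -2.47 for Hspa1a to -0.20 for Hspe1; outside cartilage the values lie between -0.39 and 0.89.

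The difference of the p21 effect between the compartments was fitted directly. It was -2.51 ± 0.51 on the log2 scale for Hspa1a (edgeR adjusted p = 0.157), -2.11 ± 0.54 for Hspa1b (0.309), -1.22 ± 0.23 for Hsph1 (0.157), -1.01 ± 0.37 for Dnajb1 (0.563) and -0.48 ± 0.16 for Hspa8 (0.490). By edgeR 0 of 10 members were called, against 0.00693% of 14422 genes, with 6 at an unadjusted p under 0.05. The last of these 6, Hsp90aa1, was 810th among all genes by p. DESeq2 called 2, Hspa1a and Hsph1.

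The size of the difference between genotypes varied with the collection. The ratio of control to p21 for Hspa1a in chondrocytes was 2.18 (tdT+) and 3.87 (tdT-) in collection 1 and 21.7 and 21.8 in collection 2, and for Hspa1b 2.14 and 1.62 against 24.3 and 12.6. Hsph1 gave 1.60 and 1.36 against 4.16 and 3.35, whereas Hspa8 gave 1.43 and 1.11 against 1.71 and 1.65. Hspb1 and Bag3 were below 1 in collection 1 (0.122 and 0.202; 0.363 and 0.653) and above 1 in collection 2 (1.03 and 1.52; 1.66 and 1.04). In a fit with the interaction of collection and genotype, chosen after the data had been seen, the p21 effect in collection 2 minus that in collection 1 was -3.12 ± 0.47 for Hspa1a (edgeR adjusted p = 0.0150), -3.19 ± 0.31 for Hspa1b (0.000228) and -3.03 ± 0.52 for Hspb1 (0.0325). These 3 of 10 members were called, against 0.272% of 12143 genes. Each genotype of a collection was 1 embryo pool sorted into 2 libraries. The standard errors and p-values of this fit therefore measure spread within pools and not between litters. Hsph1 was at -1.37 ± 0.26 (0.0519). The call held for Hspa1b in 16 of 18 alternatives, for Hspa1a in 9 and for Hspb1 in 6, and no member was called when the suspected doublets were kept or at a clustering resolution of 0.5. The count was 1 without the p21 value of the tdT+ library of collection 1 or the control of either tdT- library, and 5 without the control of the tdT+ library of collection 1. Since the sex of the p21 embryos was exchanged between collections, a difference of sex and a difference of collection cannot be told apart here. Jun, an immediate early gene that responds to handling, also had a lower p21 effect in collection 2. It stood at 1924 and 1989 CPM in p21 chondrocytes of collection 1 and 882 and 862 CPM in those of collection 2, against 1490 to 2220 CPM in controls (difference -1.54 ± 0.16, edgeR adjusted p = 0.0005). In collection 1 its p21 values lay within the control range, whereas those of Hspa1a and Hspa1b lay below their controls. Of 17 immediate early genes tested, 2 were called for this difference, both below 0, while 13 lay below 0 and 4 above (range -1.78 to 1.20). The part of Jun in the result was not tested. Outside cartilage 0 members were called for this difference between collections and DESeq2 called 0, with 0.103% of 14630 genes called. At an unadjusted p under 0.05, 3 passed, Hsph1, Hspb1 and Bag3, at ranks 908, 965 and 1263 by p.

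In controls alone the inducible Hsp70 pair was far from even across cell types. Ranked over clusters with at least 5 cells in at least 3 libraries, the sum of Hspa1a and Hspa1b was highest in the proliferative chondrocyte-like cluster (1318 ± 394 CPM, SD, n = 4 libraries), then in the resting (1180 ± 467) and the chondrocyte-like cluster (937 ± 234). An unnamed cluster led by Coro1a, Arhgdib and S100a4 followed at 706 ± 421 CPM, the interzone or articular-like cluster at 406 ± 237, and an unnamed cluster numbered 7 at 315 ± 133 (n = 3). These neighbours overlapped. Control hypertrophic-like cells, with 2 libraries not ranked, were at 1271 CPM (12 cells) and 533 CPM (19 cells). Below them came a gap without overlap, and then unnamed clusters 10 and 9 at 113 ± 55.6 and 80.1 ± 11.7 CPM, the mesenchyme or fibroblast-like cluster at 59.1 ± 40.5, the perichondrium or groove-like cluster at 48.6 ± 28.6 (n = 3) and unnamed cluster 3 at 33.0 ± 23.1 CPM. All chondrocytes together had 1066 ± 199 CPM and all cells outside cartilage 175 ± 90.

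**Figure D3:**
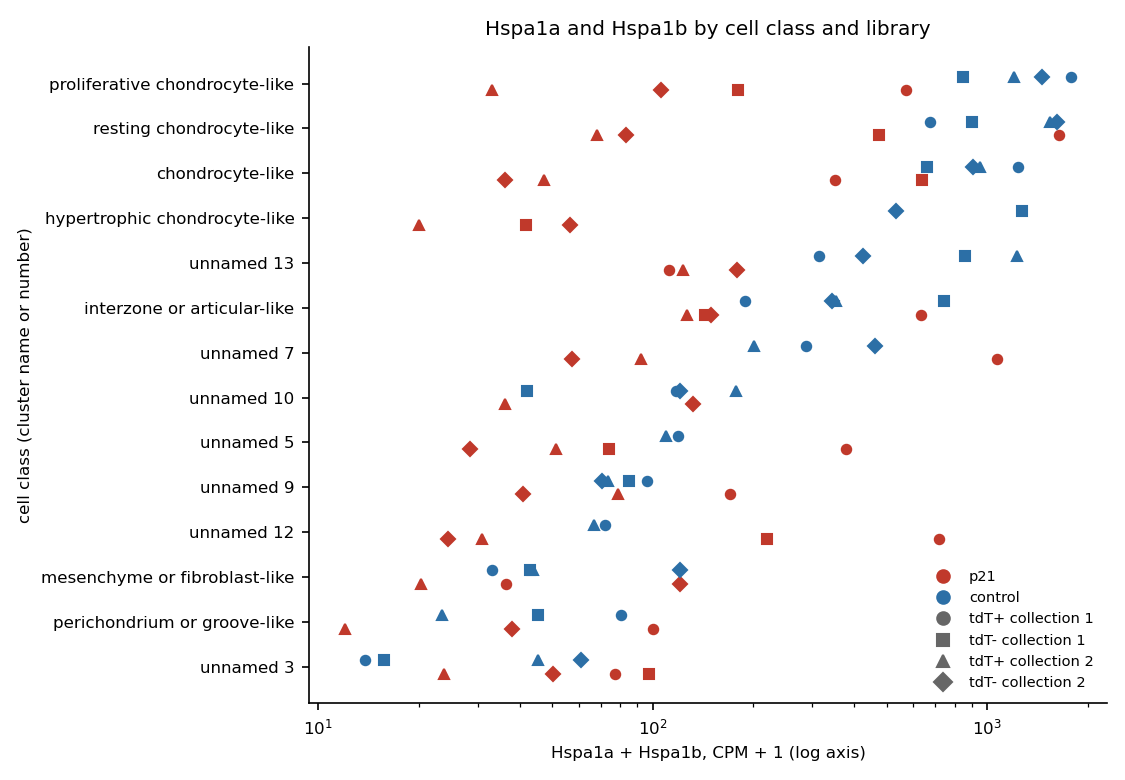
Sum of Hspa1a and Hspa1b in CPM plus 1 (x axis, log scale) by cell cluster (y axis), with 1 point per library and genotype that had at least 5 cells. Within the 4 chondrocyte clusters the p21 points of collection 2 lie below the controls, while the resting p21 point of the tdT+ library of collection 1 (1641 CPM) lies among the highest.

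The other members had their own order, over the same choice of clusters. In controls Hsph1 was highest in the chondrocyte-like cluster (235 ± 54.2 CPM), apart from the next, the proliferative one (112 ± 40.3 CPM). Hspa8 was highest in the resting cluster (2931 ± 237 CPM), which overlapped with the proliferative one (2800 ± 286), and lowest in unnamed cluster 10 (1119 ± 44.0). Dnajb1 led in the resting cluster (427 ± 254 CPM) and Hsp90aa1 in the chondrocyte-like cluster (1336 ± 203 CPM), each overlapping with the next. Hspd1 (738 ± 181 CPM) and Hspe1 (891 ± 69.9 CPM) were both highest in the proliferative cluster. With both genotypes pooled, Hspb1 was highest in muscle-like cells, at 96.6 CPM (13 cells) and 165 CPM (34 cells) in the tdT+ and tdT- libraries of collection 2, where alone this cluster had 5 cells or more. Hypertrophic chondrocyte-like cells, the enlarged cells at the end of the cartilage column, followed at 54.0, 77.4 and 92.8 CPM in 3 libraries (mean 74.7 ± 19.6), and the next cluster with 3 libraries, the unnamed one led by Coro1a, was at 11.7 ± 10.6 CPM. Bag3 was at 53.3 ± 16.3 CPM in the hypertrophic-like cluster, apart from the proliferative one at 32.1 ± 5.11, and at 31.3 and 10.7 CPM in the muscle-like cells of collection 2. Hypertrophic-like cells numbered 12 of 96 and 19 of 91 control chondrocytes in the tdT- libraries against 0 of 52 and 2 of 58 in the tdT+ ones, and Hspb1 stood at 3.99 and 31.2 against 1.39 and 10.1 CPM there. Their part in the Hspb1 levels was not tested.

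Chondrocytes were then set against all cells outside cartilage, in 1 fit with both genotypes. The members were left out of the clustering, but genes that vary with them were not, so the p-values describe a split that the clustering itself made. With that limit, 9 of 10 members were called higher in chondrocytes, where 52.0% of 14422 genes were called in either direction. Hspb1 was not called (0.41 ± 0.18, edgeR adjusted p = 0.0671). The inducible members Hspa1b (log2 difference 1.79 ± 0.41), Hspa1a (1.76 ± 0.44) and Dnajb1 (1.67 ± 0.23) had the highest values, followed by Hsph1 (0.90 ± 0.20), Bag3 (0.72 ± 0.13), Hsp90aa1 (0.72 ± 0.11), Hspd1 (0.63 ± 0.07), Hspa8 (0.50 ± 0.10) and Hspe1 (0.45 ± 0.06). With both genotypes of a library summed, the mean log2 ratio of plain CPM in chondrocytes to that outside was 1.93 ± 0.45 for Hspa1a (SD, n = 4 libraries) and lay above 0 in 4 of 4. After every cell was thinned to 3000 UMIs, the share of cells with a Hspa1a UMI was still higher in chondrocytes in all 4 libraries, by 0.92 ± 0.40 on the log2 scale. Digestion, which differed between the compartments, cannot be told apart from the tissue here.

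Within chondrocytes the clusters were compared 1 by 1, as an analysis added after the data had been seen. In the proliferative cluster the Hsp70 pair summed to 572, 179, 32.1 and 105 CPM in p21 and to 1775, 842, 1201 and 1453 CPM in controls, without overlap. In the chondrocyte-like cluster the p21 values were 350, 638, 46.4 and 35.2 CPM and the controls 1230, 658, 952 and 908, also apart. In the resting cluster the genotypes overlapped and 1 p21 value was the highest: 1641, 474, 67.0 and 82.2 CPM in p21 against 672, 896, 1543 and 1609 CPM in controls. That value came from 12 cells of the tdT+ library of collection 1. The p21 values of collection 1 came from 6 and 5 cells in the proliferative cluster and 25 and 9 in the chondrocyte-like one. Outside the class, the interzone or articular-like cluster gave 631, 142, 125 and 148 CPM in p21 against 187, 742, 351 and 343 CPM in controls, again with a high p21 value in the tdT+ library of collection 1. In hypertrophic-like cells the pair summed to 40.9, 19.0 and 55.6 CPM in p21 (all libraries but the tdT+ one of collection 1) and to 1271 and 533 CPM in the tdT- controls, which held 12 and 19 cells. The fits gave 1 called member, Hsph1 in the chondrocyte-like cluster (-1.72 ± 0.32, edgeR adjusted p = 0.0401, where 0.345% of 9267 genes were called). Hspa1a was at -2.59 ± 0.64 there (0.144) and at -3.49 ± 0.62 in the proliferative cluster (0.0614), where 0 members and 0.119% of 7570 genes were called. In the resting cluster Dnajb1 was at -1.58 ± 0.37 (edgeR adjusted p = 0.284) and 0 of the 5559 genes were called.

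The Hsp70 signal was concentrated in a minority of cells. In control chondrocytes 38.5%, 18.8%, 27.6% and 27.5% of cells held Hspa1a and Hspa1b at 1000 CPM or more, in the library order used above. In p21 chondrocytes it was 5 of 45 (11.1%), 6 of 29 (20.7%), 0 of 170 (exact 95% binomial limit 2.15%) and 3 of 239 cells (1.26%). Only in the tdT- library of collection 1 was the p21 share not below the control share. The tenth of control chondrocytes with the most UMIs of the pair held 53.7% to 76.7% of them. Intervals cover counting error only. With every cell thinned to 3000 UMIs, Hspa1a was seen in 24.4%, 10.7%, 4.17% and 9.40% of p21 and 48.1%, 30.8%, 34.5% and 37.8% of control chondrocytes (8 shallower p21 and 6 control cells left out), and unthinned in 60.0%, 65.5%, 24.7% and 33.5% against 63.5%, 52.1%, 56.9% and 69.2%. For Hspa1a the genotypes did not overlap after thinning. For Hspa1b they did, with 35.6%, 57.1%, 8.33% and 9.83% of p21 and 55.8%, 31.9%, 36.2% and 40.0% of control chondrocytes, and the highest share was that of p21 cells in the tdT- library of collection 1. Free RNA is a limit for the lowest values, and its level was not measured. Barcodes with under 1000 UMIs, not all of which need be empty, held Hspa1a at 183, 168, 104 and 115 CPM in the 4 libraries. These values lay above the 18.5 and 28.4 CPM of p21 chondrocytes in collection 2.

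**Figure D4:**
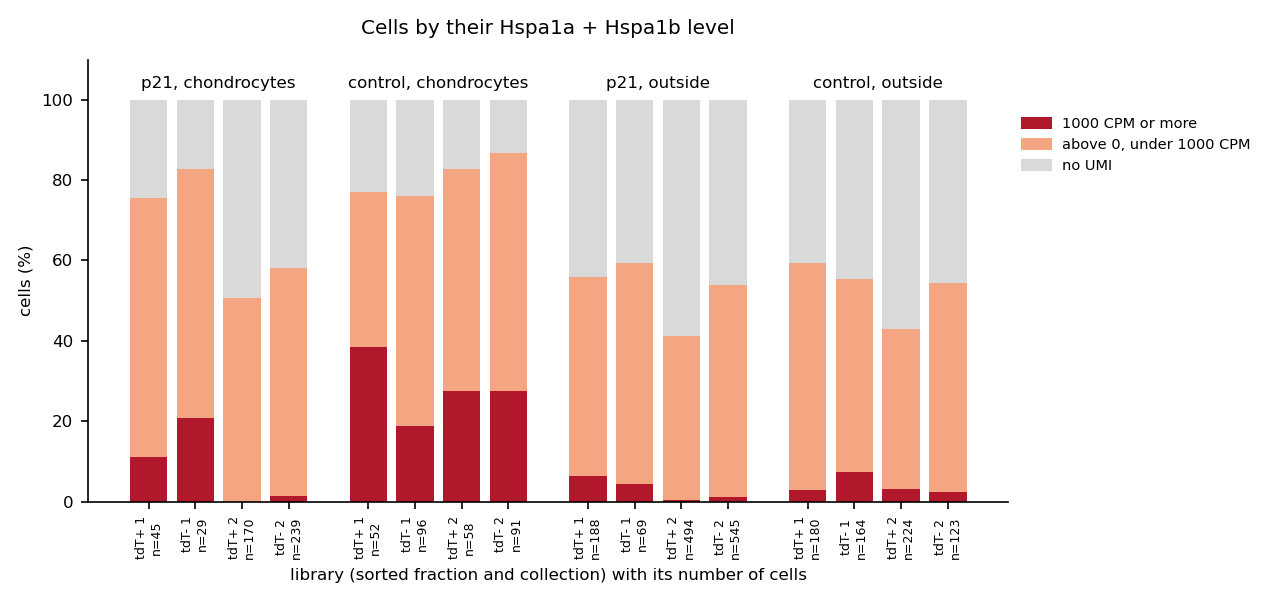
Stacked bars of the share of cells (%, y axis) with Hspa1a and Hspa1b together at 1000 CPM or more (dark red), at a lower level (orange) or with no UMI (grey), 1 bar per library, genotype and compartment, not thinned. In chondrocytes of collection 2 the p21 shares at the high level are 0% and 1.26% against 27.6% and 27.5% in controls.

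Inducible and constitutive members were summarised as the mean log2 CPM over each set. In chondrocytes the inducible mean was 6.59, 6.45, 4.86 and 5.42 in p21 and 6.60, 6.46, 7.13 and 7.44 in controls. The constitutive mean was 9.77, 9.79, 9.50 and 9.59 in p21 and 10.16, 9.88, 10.05 and 10.11 in controls. In collection 1 the inducible mean was nearly the same in both genotypes, and in collection 2 it was lower in p21. The constitutive mean was lower in p21 in all 4 libraries. A mean of logs weighs each gene alike, and in collection 1 Hspb1 and Bag3 were higher in p21. The plain sum over the inducible members was lower in p21 in collection 1, at 928 against 1854 CPM (tdT+) and 728 against 1159 CPM (tdT-). Hspb1 rested there on 2 and 9 control UMIs. Inducible minus constitutive was -3.83 ± 0.69 (SD, n = 4) in p21 and -3.14 ± 0.42 in control chondrocytes, a difference of -0.69 that was negative in 2 of 4 libraries (range -1.72 to 0.39). Outside cartilage the difference was 0.07. Hsp90aa1, set here among the constitutive members, is itself stress-responsive. With it counted as inducible, inducible minus constitutive was -3.26 ± 0.65 in p21 and -2.60 ± 0.37 in control chondrocytes. Within the inducible set, Hspa1a, Hspa1b, Dnajb1 and Hsph1 had log2 fold changes of -2.47 to -1.17, and Hspb1 and Bag3 of 0.37 and 0.18.

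**Figure D5:**
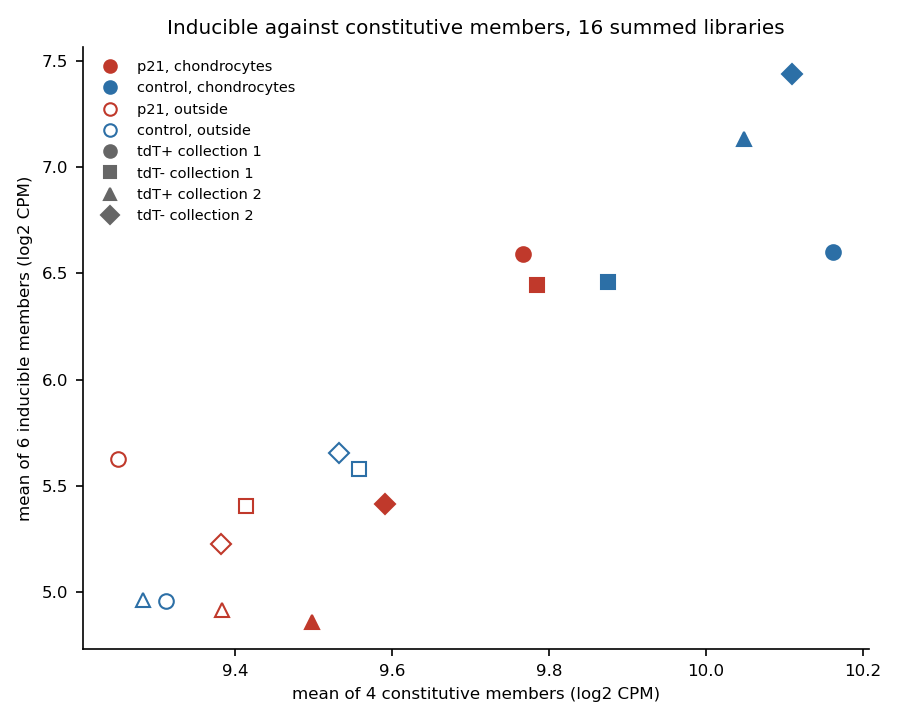
Mean log2 CPM of the 6 inducible genes (y axis) against that of the 4 constitutive genes (x axis), 1 point per library, genotype (colour) and compartment (filled for chondrocytes, open for outside). In chondrocytes the inducible mean of p21 is at 4.86 and 5.42 in collection 2 and at 6.59 and 6.45 in collection 1, and the controls lie between 6.46 and 7.44.

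The sorted fraction and the collection gave few differences for these genes. Between tdT+ and tdT- chondrocytes 0 of 10 members were called by edgeR and 0 by DESeq2 (0.0344% of all genes by edgeR), and 1 passed at an unadjusted p under 0.05, Hspb1 at -1.21 ± 0.50. Outside cartilage edgeR called 0 of 10 (1.24% of all genes), with 3 at an unadjusted p under 0.05: Hspb1 (-1.56 ± 0.41, adjusted p = 0.118), Hsp90aa1 (-0.24 ± 0.08, 0.202) and Hspa8 (-0.25 ± 0.08, 0.173). DESeq2 called Hspb1, and so did edgeR with the embryo pool as a block (-1.45, adjusted p = 0.045). Muscle-like cells held 139 of the 302 Hspb1 UMIs outside cartilage in the tdT- library of collection 2 and 18 of 39 in that of collection 1, and 34 of the 52 muscle-like cells were in the first of these. The summed level of 6 muscle markers outside cartilage ranged from 7.73 to 478 CPM. The part of muscle cells in the Hspb1 result was not tested. Between collections 0 members were called in chondrocytes by either tool and 0% of 12143 genes were called. At an unadjusted p under 0.05, 3 passed, Hspa1a, Hspa1b and Hspb1, at ranks 459, 497 and 662 by p. Outside cartilage edgeR called 0 members and 0% of 14630 genes, 2 passed at an unadjusted p under 0.05 (Hspa1a -1.08 ± 0.29 and Hspa1b -1.05 ± 0.22) and DESeq2 called Hspa1b.

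Other proteostasis genes were taken as fixed lists chosen for their roles. Among 31 heat shock factors and cytosolic chaperones tested of 36, 0 were called between p21 and control chondrocytes, with a median log2 fold change of -0.04. The TRiC and prefoldin complexes that fold actin and tubulin (14 genes, median -0.02), mitochondrial chaperones and proteases (8 genes, 0.06) and endoplasmic reticulum chaperones (20 genes, 0.04) also gave 0 called. Of 17 immediate early genes tested, 14 lay below 0 with a median of -0.16, and 1 was called, Klf6, a zinc finger factor induced by stress (-0.91 ± 0.15, edgeR adjusted p = 0.0187). Against cells outside cartilage the endoplasmic reticulum list was higher in chondrocytes in 20 of 20 genes called (median 0.50), with Hspa5, the BiP chaperone, at 0.70. Immediate early genes were called higher in 16 of 17 and lower in 1, with a median of 1.14. The cytosolic list split into 8 higher and 4 lower of 35.

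Hspa1a and Hspa8 were matched with the genes whose pattern was most like theirs over 50 sums, 1 per cluster and library with both genotypes joined, and 7129 genes. For Hspa1a, Hspa1b came first (Spearman rho of CPM 0.927), followed outside the members by Jmjd6 (0.859), Pfkl (0.835), Fam162a (0.801), Ier2 (0.795) and Ldha (0.794). Dnajb1 was 80th, Hspa8 184th and Hsph1 1033rd. For Hspa8 the most alike were Adrm1 (0.872), Eif1 (0.855), Snu13 (0.851), Eif4a3 (0.828) and Vdac2 (0.826), with Hspe1 at rank 15. The sums share libraries, depth and cell clusters, so these values are a description. Between single control chondrocytes thinned to equal depth, Hspa1a and Hspa1b had a Spearman rho of 0.71, 0.36, 0.42 and 0.71 in the 4 libraries, and Hspa1a and Hsph1 0.43, 0.20, 0.23 and 0.22.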

How the data were processed

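Per the labels and the study's methods, cells were released with Accumax and then Collagenase B, sorted on tdT and profiled with the 10x 3′ v3.1 kit. The authors deposited raw UMI counts per gene and barcode, made with Cell Ranger 7.2.0 (submitters' processing notes) on mm10 with transgene sequences added. Depth was 11945062 to 39435830 UMIs per library, and precision rests on the UMIs given beside low genes.

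Barcodes were kept with at least 1000 UMIs, 500 genes and at most 10% mitochondrial UMIs. The sex of a cell was called from at least 2 UMIs of Xist or Y-linked genes with a share of 80% for 1 sex, and gave the genotype as the study's methods describe the pooling. Barcodes of mixed sex (40 to 132 per library) and the 5% with the highest Scrublet score among those of 3000 UMIs or more were removed as suspected doublets, and barcodes without an assigned sex (262 chondrocytes and 3463 others) were set aside. Libraries shared 3 to 12 barcodes before filters. Cells were clustered (scanpy 1.11.5, 2000 variable genes, 30 components, 15 neighbours, Leiden resolution 1) without the members, the other chaperone and immediate early genes, cell cycle genes, sex genes and transgenes (772 genes in all). Of 21 clusters, 4 were named as chondrocytes from fixed markers (157, 345, 186 and 92 cells). Cells are not replicates, so counts were summed per library, genotype and compartment.

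Sums were tested with edgeR 4.0.16 (filterByExpr, TMM, quasi-likelihood), with the sorted fraction as covariate for genotype, the genotype for fraction, both for collection, and the library and genotype as a block for contrasts of compartments. Benjamini-Hochberg adjustment ran over all genes tested and a call is an adjusted p under 0.05. Levels by compartment are TMM-scaled CPM and those by cluster are plain CPM, for classes with at least 5 cells. Patterns were compared over sums of at least 20 cells and 100000 UMIs. Scripts were tested on simulated data. For p21 against control in chondrocytes, 64% of changes of 1 on the log2 scale were recovered, and 9.60% of calls were false. Recovery was 40% for the difference between compartments. For the difference between collections it was 22% in chondrocytes and 24% outside. False calls ran from 3.59% to 13.4% over the comparisons, the highest for the difference between collections outside cartilage. Alternatives were DESeq2 1.42.0, limma-voom 3.58.1, other scaling, filters, cell sets, blocks and leaving out each value. All 10 members were tested in each comparison, but not every member's value is printed for each. From each other list up to 4 genes of lowest p could be named. The members and lists were chosen with earlier results of these data known. The study removed ambient RNA, which was not done here. The tdT+ and tdT- values of an embryo pool come from the same animals (correlation of their deviations in chondrocytes 0.110 to 0.381, outside 0.068 to 0.344).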

Additional observations from a re-analysis of the deposited data

Results flagged for a closer look

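Chance flags about 1 in 20 groups of 4 as holding a sample far from the others, and 3 of 40 groups were so flagged. Hspa8 in control chondrocytes was at 2291 CPM in the tdT- library of collection 1, while the other 3 libraries lay at 2590 to 2633 CPM. Hspb1 in control cells outside cartilage was at 23.7 CPM in the tdT- library of collection 2, while the others lay at 2.31 to 4.57 CPM. Hsph1 in p21 cells outside cartilage was at 48.0 CPM in the tdT- library of collection 2, while the others lay at 58.9 to 60.8 CPM.

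The p21 effect in chondrocytes differed between the collections, by the interaction term of edgeR, for Hspa1a (-3.12 on the log2 scale, adjusted p = 0.0150), Hspa1b (-3.19, 0.000228) and Hspb1 (-3.03, 0.0325). For Hspa1a and Hspa1b the p21 values were below the controls in both collections and by more in collection 2. For Hspb1 the p21 values were above the controls in collection 1, where control chondrocytes held few Hspb1 UMIs. The collection and the sex of the p21 embryos cannot be told apart. The p-values measure spread between sorted libraries of the same embryo pools and not between litters.

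Barcodes that entered no comparison also held these transcripts. Barcodes under 1000 UMIs held 1107 UMIs of Hspa1a, 1182 of Hspa1b, 1222 of Dnajb1, 281 of Hsph1, 5218 of Hsp90aa1, 19270 of Hspa8, 6415 of Hspe1, 3489 of Hspd1, 131 of Hspb1 and 109 of Bag3 over the 4 libraries. Among barcodes past the filters but without an assigned sex, Hspa1a and Hspa1b together had 1322 UMIs in chondrocytes (550 CPM) and 1856 UMIs outside cartilage (269 CPM). Their genotype is not known.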

How the results depend on the processing

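The count of members called between p21 and control chondrocytes (2) was 5 with limma-voom, 6 without the low-count filter, 1 at clustering resolution 2, 0 with the cartilage gate, 0 with the fractions of a pool summed, and 0 to 3 when 1 value was left out. Outside cartilage (0) it was 3 without the filter and 0 to 1 with 1 value left out, the 1 without the control of the tdT- library of collection 2. For the difference of the effect between compartments (0) it was 2 with DESeq2, 6 without the filter and 1 at resolution 0.5. For tdT+ against tdT- it was 3 without the filter in chondrocytes, and outside cartilage 1 with DESeq2, 3 without the filter, and 0 to 1 with 1 value left out, the 1 without the control of the tdT- library of collection 2. Between collections it was 3 without the filter in chondrocytes, and 1 with DESeq2 and 2 without the filter outside. The count of 9 higher in chondrocytes than outside was 8 to 10 in the alternatives. Apart from the filter itself, the cause of these shifts was not tested. The highest counts over all genes, given next, came without the filter, except 7949, which came with limma-voom. The lowest for p21 in chondrocytes came without the p21 value of the tdT+ library of collection 2. Over all genes, the lowest and highest counts of calls across alternatives were 9 and 495 for p21 in chondrocytes (93 in the main fit), 0 and 296 outside (1), 0 and 277 for the difference between compartments (1), 4725 and 7949 between compartments (7494), 1 and 192 for tdT in chondrocytes (4), 1 and 1165 outside (175), 0 and 149 for collection in chondrocytes (0) and 0 and 43 outside (0).

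With the library as a replicate block, p21 against control called 2 members in chondrocytes (Hspa1a and Hspa8) and 0 outside, though p21 and control of a library share only the reaction and their deviations correlated at -0.053 to 0.107. With the embryo pool as a block, tdT+ against tdT- called 0 members in chondrocytes (24 genes in all against 4) and 1 outside, Hspb1 (359 genes in all against 175). Without the replicate block, the contrasts of the compartments called 0 and 9 members.

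Among single genes, directions changed only where the main value was small or rested on 1 value. With 1 value left out, p21 against control in chondrocytes ranged from -0.035 to 1.41 for Hspb1 and from -0.013 to 0.44 for Bag3. Outside cartilage it then ranged from -1.04 to 0.023 for Hspa1a, from -0.16 to 0.0097 for Hsph1, from -0.12 to 0.13 for Bag3 and from -0.065 to 0.0046 for Hspd1, the Hspa1a extremes without the p21 value of the tdT+ library and the control of the tdT- library of collection 1. The difference between compartments ranged from -0.47 to 0.032 for Hspb1 and from -0.075 to 0.32 for Bag3. Outside cartilage Hsph1 was 0.055 with the gate, and Bag3 was -0.026 with limma-voom, -0.016 with suspected doublets kept, -0.068 with the gate, -0.00072 with the library as a block and -0.050 without undecided clusters. For the difference between compartments Bag3 was -0.0011 at resolution 2 and Hspe1 0.059 at resolution 0.5. Hspb1 in chondrocytes against outside was -0.16 with the gate and -0.023 as the share of thinned cells. The alternatives were also labelled over single-gene fold changes, single-gene level ratios and counts over all genes together. Of these, 1251 were labelled as the same as the main value, 84 as moved, 20 as reversed, 54 as gaining a call and 45 as losing it. For a fold change, the same means direction and side of the threshold. For levels and counts it means a value near the main one.

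Sex and genotype are exchanged between only 2 collections, low genes such as Hspb1 rest on as few as 2 UMIs in a value, and free RNA was not removed.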

Other observations

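In p21 chondrocytes the level of Hspa1a was also read by whether a cell held a WPRE UMI. In the tdT- library of collection 2 the 205 p21 cells with WPRE were at 28.1 CPM and the 34 without at 27.3 CPM. In the tdT- control of collection 1, 55 cells with WPRE were at 405 CPM and 41 without at 458 CPM, and in that of collection 2, 68 cells were at 633 CPM and 23 at 436 CPM. Cells without WPRE were shallower, with a median of 9279 UMIs against 26417 in the p21 cells. The other p21 libraries held 3 or fewer chondrocytes without WPRE. These are values of cells in single libraries and were not tested.

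Chondrocytes of no assigned sex (262 barcodes, median 5376 UMIs) held Dnajb1 at 422 CPM, Hspa8 at 2399 CPM and Hspb1 at 31.2 CPM. Between single control chondrocytes thinned to equal depth, Hspa1a and Jun had a Spearman rho of 0.16, 0.24, 0.47 and 0.33 in the 4 libraries.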
